A study of Sus scrofa with 22 samples.

Results

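Skeletal muscle genes of the pig tongue were described from a list of 40 genes that encode the contractile, structural, calcium-handling and energy-supplying proteins of muscle fibres. The genes were taken by symbol: 14 isoforms typical of fast fibres, 10 typical of slow fibres, 1 developmental isoform and 15 genes used by both fibre kinds. Of the 40 genes, 38 had an entry among the 27376 genes of the main annotation and the 29850 genes of the annotation used for the CQ experiment. MB, which encodes myoglobin, and MYH3, the embryonic myosin heavy chain, had no entry under these symbols and were not analysed here.

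The libraries came from organoids and from foliate papillae, ridges on the lateral tongue in which taste buds sit, with 22 libraries in 6 groups. Passage 1 organoids of 5 pigs were grown in the medium LPM, and foliate papillae of these 5 pigs were sequenced as native tissue. A second experiment had 3 organoid libraries in LPM without FGF10 and 3 in complete LPM. The CQ experiment had 3 organoid libraries grown in LPM up to day 10, then moved to CQ and collected at day 16 or 17, and 3 kept in LPM, for which no day is recorded. LPM contained insulin, Wnt3a, SHH, noggin, R-spondin 2, FGF2, FGF10 and EGF, with the small molecules forskolin, prostaglandin E2, CHIR99021, a TGF-beta receptor inhibitor, a p38 inhibitor, a ROCK inhibitor, nicotinamide and acetylcysteine. The sources used here do not give what CQ contains. Each papilla library and each passage 1 organoid library came from 1 pig, and organoids carry a cell line label. The FGF10 libraries are labelled biological replicates, but the labels name no animals for either medium experiment, so spread between those libraries may be technical.

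Muscle fibres shorten when myosin heavy chains of the thick filament pull on actin of the thin filament, and troponin and tropomyosin switch this pull on when calcium is released from the sarcoplasmic reticulum. Most of these proteins exist as separate fast and slow isoforms encoded by different genes. The tongue is largely striated muscle, whose fibres reach up to the connective tissue beneath the papillae, while taste buds and the surface epithelium contain no such fibres.

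Library totals ran from 14.67 to 27.77 M counts, and levels are given as TMM-scaled CPM (counts scaled to a common library size), or as CPM per kb of exon length where genes are compared with each other. KRT5, the keratin of basal epithelial cells, was at 1148 to 2172 CPM in passage 1 organoids and 6389 to 9592 CPM in papillae. Fibroblast, endothelial, Schwann cell and serous gland genes were read beside the muscle genes: all 5 listed fibroblast genes, 4 of 5 endothelial genes, all 5 Schwann cell genes and all 5 gland genes tested were called lower in organoids. Organoids and papillae were also extracted with different RNA kits, so kit and tissue cannot be told apart. In bulk libraries, fewer cells of a type and less RNA per cell cannot be told apart either.

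Passage 1 organoids were set against the papillae of the same pigs, and nearly all muscle genes were present in tissue and at or near 0 in organoids. Without TPM3, the members summed to 5.82, 5.80, 7.66, 9.66 and 5.86 CPM per kb in the organoids of pigs 1 to 5, and to 1294, 346, 9532, 2351 and 2956 CPM per kb in the papillae of pigs 1 to 5. The lowest papilla was thus far above the highest organoid library. As a share of all counts these members took between 9.53e-04% (95% Wilson interval 8.38e-04 to 0.00108%) and 0.00173% (0.00156 to 0.00191%) in organoids. In papillae they took between 0.0577% (0.0567 to 0.0588%) and 1.49% (1.49 to 1.5%). These intervals reflect counting error alone and not the spread between pigs. They may be too narrow even for counting error, because without molecular identifiers several reads can stem from 1 molecule.

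Of the 38 members, 36 passed the filter on low counts, 35 were called lower and 1 higher in organoids (edgeR quasi-likelihood test, adjusted p under 0.05). Over all 16311 genes tested, 35.1% were called lower and 32.4% higher, or 67.5% in either direction, so that 48.0% of calls were higher; scaled by library size alone, 59.6% were, and the median of all genes moved to 0.28 on the log2 scale. For 36 of 38 members all organoid libraries lay below all papilla libraries, against 29.6% of genes tested, and for TPM3 they lay above, against 24.5%. The 36 include MYH4, which was not tested. The median log2 fold change of the tested members was -9.97, or -9.70 with the 8 tested genes at 0 in organoids set to their bound, beside -0.01 for all genes. Of the 36 tested members, 32 missed the filter's count minimum in at least 1 organoid library and so passed through the papillae alone. Of these, 24 reached it in no organoid library. A member that passes in this way had to differ or was tilted towards it, and the counts carry no weight beyond a description. The members with the minimum in every organoid library were ATP2A1, TPM3, RYR1 and ENO3.

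The sizes of the fold changes leaned on the papilla of pig 3. Leaving it out moved 26 of 36 members closer to 0 by over 1.5 times, for example MYH2 to -15.75, ACTA1 to -13.78, TNNT3 to -12.07, TNNC2 to -6.28 and ATP2A1 to -5.85 on the log2 scale, and leaving out any other papilla moved 0 of 36 that far. Leaving out 1 organoid library moved 9 members farther from 0. These were TNNT3 without pig 1 (to -14.00), TNNT1 without pig 2 (-7.45), NEB without pig 3 (-13.21), TNNC2 (-8.71) and TNNI1 (-13.06) without pig 4, and TNNC1 (-10.84), MYBPC1 (-12.71), LDB3 (-11.34) and PYGM (-9.97) without pig 5.

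**Figure D1:**
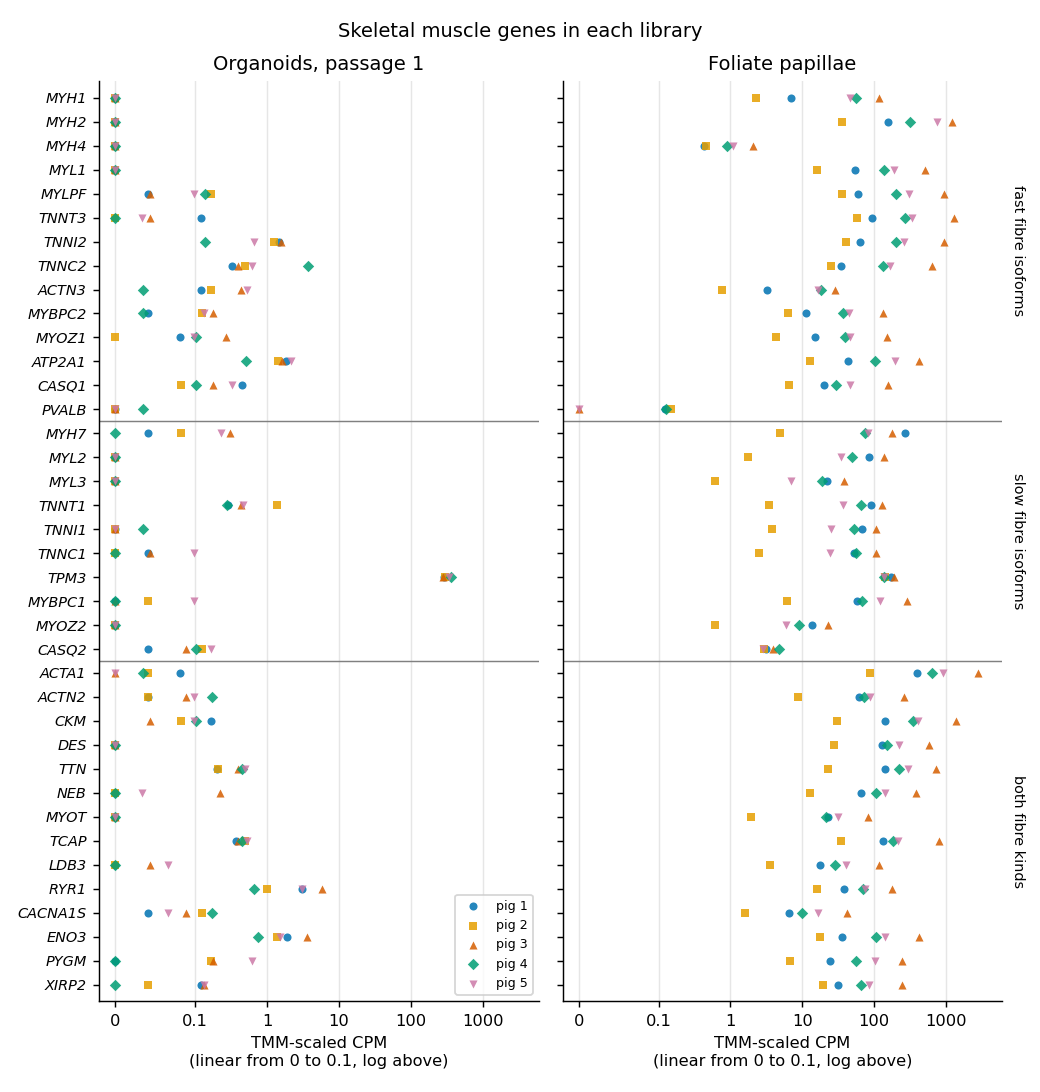
TMM-scaled CPM (x axis, linear from 0 to 0.1 and logarithmic above) of the 38 members (rows, grouped as fast fibre, slow fibre and both) in 5 passage 1 organoid libraries (left) and 5 papilla libraries (right), with 1 point per pig. Points of organoids sit below those of papillae for 36 members, PVALB is near 0 in both, and TPM3 is higher in organoids; among papillae the triangles of pig 3 lie farthest right and the squares of pig 2 farthest left for most genes.

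The myosin heavy chains are the motors of the thick filament. MYH2, the fast IIa motor (chromosome 12, 55252974 to 55278820, Sscrofa11.1), had 0 counts in all 5 organoid libraries, against 153, 35.9, 1221, 313 and 746 CPM in the papillae of pigs 1 to 5. In these organoids the median variance over mean was 5.777 among genes averaging 10 to 30 counts. A floor of 3 counts over the group therefore covers counting error alone. With this floor, MYH2 was at least 21979-fold lower in organoids (adjusted p = 1.41e-04, edgeR), a bound that may be too high. MYH1, the fast IIx motor beside it (55225581 to 55251495), also had 0 counts in organoids, against 6.97, 2.25, 118, 55.1 and 45.9 CPM in papillae. Both genes were therefore found in every papilla and in no passage 1 organoid library. MYH4, the fast IIb motor of the same cluster (55190545 to 55216294), had 0 counts in organoids and 0.432, 0.451, 2.08, 0.889 and 1.07 CPM in papillae, too few counts to pass the filter. MYH7, the slow motor (chromosome 7, 75650841 to 75672908), was at 0.0407, 0.0819, 0.308, 0 and 0.230 CPM in organoids, against 266, 4.91, 174, 73.3 and 81.1 CPM in papillae (log2 fold change -9.79, SE 1.14, adjusted p = 1.88e-05). Its highest papilla was that of pig 1, not that of pig 3 as for the fast motors. MYH1, MYH2 and MYH4 are near-identical copies, and pairs with several mapping places were left out, so their levels are uncertain and may be too low.

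Per kb, MYH2 made up 31.7, 79.9, 77.9, 67.3 and 83.1% of the summed level of these 4 heavy chains in the papillae of pigs 1 to 5. MYH7 made up 66.5, 13.2, 13.4, 19 and 10.9%. MYH1 stayed between 1.64 and 13.4%, and MYH4 between 0.107 and 1.20%. The IIa motor thus led in 4 papillae and the slow motor in that of pig 1.

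The myosin light chains are bound at the neck of the motor. MYL1, the fast essential light chain, had 0 counts in organoids, against 53.2, 15.8, 509.8, 138 and 188 CPM in papillae. MYL3, its slow counterpart, had 0 counts in organoids, against 22.3, 0.601, 37.9, 18.7 and 6.96 CPM in papillae. The fast gene varied 32.3-fold and the slow gene 63.1-fold over the 5 papillae, and both had their lowest value in pig 2. MYLPF, the fast regulatory light chain, was at 0.0407, 0.164, 0.0439, 0.136 and 0.0984 CPM in organoids, against 59.9, 35.4, 925, 201 and 303 CPM in papillae. MYL2, the slow regulatory light chain, had 0 counts in organoids, against 85.6, 1.75, 136, 49.2 and 34.7 CPM in papillae. MYL2 had the widest range of all members, 77.8-fold between pig 3 and pig 2.

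Troponin is the calcium switch of the thin filament. TNNT3, fast troponin T, was at 0.122, 0, 0.0439, 0 and 0.0328 CPM in organoids, against 93.5, 57.9, 1268, 265 and 339 CPM in papillae (log2 fold change -13.17, SE 1.27, adjusted p = 4.88e-06). TNNT1, slow troponin T, was at 0.285, 1.35, 0.439, 0.272 and 0.459 CPM in organoids, against 90.7, 3.45, 129, 66.2 and 36.8 CPM in papillae. The papilla of pig 2 was lowest for both, and the organoid of pig 2 was the highest organoid for TNNT1, still below every papilla. TNNI2, fast troponin I, was at 1.46, 1.23, 1.54, 0.136 and 0.656 CPM in organoids, against 63.9, 40, 921, 199.8 and 256 CPM in papillae. TNNI1, slow troponin I, had 1 count over all organoids, against 66.8, 3.75, 107, 52.1 and 25.1 CPM in papillae. The ratio of papillae to organoids for TNNI1 was 6796, with an exact 95% interval of 1219 to 268489 from counts pooled over libraries. This interval reflects counting error alone and not the spread between pigs. TNNC2, fast troponin C, was at 0.325, 0.492, 0.395, 3.71 and 0.623 CPM in organoids, against 34.4, 24.9, 639, 134 and 164 CPM in papillae. TNNC1, the troponin C of slow fibres and heart, was at 0.0407, 0, 0.0439, 0 and 0.0984 CPM in organoids, against 51.8, 2.50, 105, 55.1 and 24.4 CPM in papillae. In each troponin gene the groups did not overlap. In organoids the fast genes TNNI2 and TNNC2 had 125 and 157 counts, against 1 and 5 for the slow genes TNNI1 and TNNC1, while for troponin T the fast gene TNNT3 had 5 and the slow gene TNNT1 72.

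Of these troponin genes TNNC2 needs a separate reading. Of its 482 exon bases, 312 (64.7%) are shared with LOC110257453 on the opposite strand, and strand was ignored in counting, so a read pair there counted for both genes. LOC110257453 had 22, 21, 23, 217 and 27 counts in organoids of pigs 1 to 5, highest in pig 4 as TNNC2 was, against 456, 401, 10536, 1734 and 2124 counts in papillae. How many of the TNNC2 counts belong to either gene was not tested.

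Myosin-binding protein C holds the thick filaments in register. MYBPC1, the slow form, was at 0, 0.0410, 0, 0 and 0.0984 CPM in organoids, against 56.9, 6.06, 288, 67.2 and 119.8 CPM in papillae. MYBPC2, the fast form, was at 0.0407, 0.123, 0.176, 0.0341 and 0.131 CPM in organoids, against 11.2, 6.31, 134, 37.1 and 44.3 CPM in papillae. Myozenins tie calcineurin to the Z-disc. MYOZ1, the fast form, was at 0.0813, 0, 0.264, 0.102 and 0.0984 CPM in organoids, against 15, 4.26, 148, 38.7 and 46.0 CPM in papillae. MYOZ2, the slow form, had 0 counts in organoids, against 13.8, 0.601, 23, 8.89 and 5.96 CPM in papillae. All 4 genes were lowest in the papilla of pig 2 and highest in that of pig 3.

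Calsequestrins store calcium inside the sarcoplasmic reticulum. CASQ1, the fast form, was at 0.447, 0.0819, 0.176, 0.102 and 0.328 CPM in organoids, against 20.2, 6.46, 153, 29.3 and 45.3 CPM in papillae. CASQ2, the form of slow fibres and heart, was at 0.0407, 0.123, 0.0879, 0.102 and 0.164 CPM in organoids, against 3.09, 2.95, 3.95, 4.70 and 2.81 CPM in papillae (log2 fold change -4.98, SE 0.36, adjusted p = 6.09e-07). CASQ2 thus did not follow the other members among papillae: it varied 1.67-fold, and its highest value was in pig 4. PVALB, the calcium buffer parvalbumin, had 1 count in organoids and 7 in papillae, in 3 of 5 papilla libraries, and the groups overlapped. The ratio of papillae to organoids was 10.6. Its exact 95% interval of 1.37 to 479.5 reflects counting error alone in the pooled counts, not the spread between pigs.

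Among genes used by both fibre kinds, ACTA1, the actin of skeletal muscle, had the highest mean level per kb in papillae, at 509 ± 557 CPM per kb (SD, n = 5). In the papilla of pig 2 it was at 46.2 CPM per kb, below TNNI2 at 58.9 and TNNC2 at 51.7 CPM per kb. Its CPM were 0.0813, 0.0410, 0, 0.0341 and 0 in organoids, against 397, 87.2, 2761, 645 and 909 in papillae (log2 fold change -14.69, SE 1.27, adjusted p = 2.19e-06). Its rank among all genes by level per kb was 43 in the papilla of pig 3 and 1235 in that of pig 2. CKM, the muscle creatine kinase that regenerates ATP, was at 0.163, 0.0819, 0.0439, 0.102 and 0.0984 CPM in organoids, against 142, 30.4, 1358, 349 and 401 CPM in papillae. DES, the intermediate filament that links Z-discs, had 0 counts in organoids, against 128, 27.2, 575, 151 and 223 CPM in papillae. DES is also a gene of smooth muscle, and by the same floor as MYH2 it was at least 9967-fold lower in organoids (adjusted p = 8.23e-05, edgeR).

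TTN, the titin spring that centres the thick filament, was at 0.203, 0.205, 0.395, 0.443 and 0.492 CPM in organoids, against 143, 22.4, 723, 219 and 297 CPM in papillae. NEB, the nebulin ruler of the thin filament, was at 0, 0, 0.220, 0 and 0.0328 CPM in organoids, against 65.9, 12.9, 385, 107 and 143 CPM in papillae. Both giant proteins followed ACTA1 in the order of pigs. The other members of this kind that were called lower had log2 fold changes between -12.44 for MYOT and -4.81 for RYR1. MYOT had 0 counts in organoids and by the same floor was at least 1437-fold lower. They were ACTN2, TCAP and LDB3 of the Z-disc, MYOT and XIRP2, which bind actin or its partners there, the calcium release channel RYR1 with its voltage sensor CACNA1S, and the enzymes ENO3 of glycolysis and PYGM of glycogen breakdown. Of the remaining fast members, ACTN3, the fast Z-disc actinin, fell 50.9-fold (log2 fold change -5.67, SE 0.98), and ATP2A1, the fast calcium pump, fell 102-fold (-6.68, SE 0.92; edgeR adjusted p = 3.55e-04 for ACTN3 and 6.65e-05 for ATP2A1).

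TPM3 was the only member called higher in organoids. It encodes the slow skeletal tropomyosin and, from other promoters and exons, cytoskeletal tropomyosins of non-muscle cells, and counts per gene do not separate these. It was at 291, 295, 276, 364 and 335 CPM in organoids, against 170.4, 143, 190.4, 137 and 136 CPM in papillae (log2 fold change 1.01, SE 0.14, adjusted p = 6.20e-05). The groups did not overlap, and among papillae it varied 1.40-fold.

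The papillae differed from each other far more than the organoids did. The fast panel summed to 377, 203, 5211, 1171 and 1612 CPM per kb in the papillae of pigs 1 to 5. The panel used by both kinds summed to 530.4, 127, 3657, 885 and 1166 CPM per kb. The slow panel without TPM3 summed to 387, 16.0, 664, 295 and 178 CPM per kb. Pig 3 was highest and pig 2 lowest in all 3 panels, while pig 1 was next to lowest in the fast and shared panels but next to highest in the slow one.

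Gene by gene, leaving out PVALB with its few counts, 35 of 37 members had their highest papilla in pig 3, and 34 of 37 their lowest in pig 2. Over all 16311 genes tested, 21.1% were highest in pig 3 and 20.8% lowest in pig 2, and the median gene varied 1.54-fold between papillae. The exceptions for the highest value were MYH7 and CASQ2, and those for the lowest were MYH4, TPM3 and CASQ2. The ratio of the highest to the lowest papilla had a median of 26.1 in 13 fast members, 41.9 in 9 slow members without TPM3 and 29.8 in 14 members of both kinds. The members share their library, so these counts describe 5 papillae and not 37 independent observations.

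Of the summed markers of other cell types in the fold, those of adipocytes shared both extremes of this order and the others listed here did not. The 8 smooth muscle genes summed to 1706, 1324, 1273, 1361 and 1719.7 CPM in the papillae of pigs 1 to 5, a 1.35-fold range. Their contractile member MYH11, chosen after its values were seen, was at 609.5, 419, 415, 460.0 and 638 CPM, while it was at 0.410 to 0.569 CPM in organoids. The 5 fibroblast genes summed to 5519, 3066, 1772, 2035 and 1504 CPM, highest in pig 1. The 5 endothelial genes ran from 324 to 499.9 CPM, the 5 Schwann cell genes from 257 to 387 CPM, and the 5 gland genes found, led by OBP2B and BPIFA2, from 37978 CPM in pig 2 to 181905 CPM in pig 5. The 7 cardiac genes found stayed low, at 16.4 to 38.0 CPM, with their highest sum in pig 2. The 5 adipocyte genes summed to 7.41, 3.15, 17.6, 6.42 and 4.02 CPM, highest in pig 3 and lowest in pig 2, with FABP4 alone at 12.7 CPM in pig 3; CIDEC was highest in pig 1, ADIPOQ and PLIN1 were lowest in pig 5, and LEP was at 0 in 4 papillae. In organoids the smooth muscle sum was 50.7 to 112 CPM, the fibroblast sum 0.737 to 2.95 CPM, the endothelial sum 21 to 114 CPM and the Schwann cell sum 13 to 25.4 CPM. The part of these cell types in the muscle values was not tested.

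**Figure D2:**
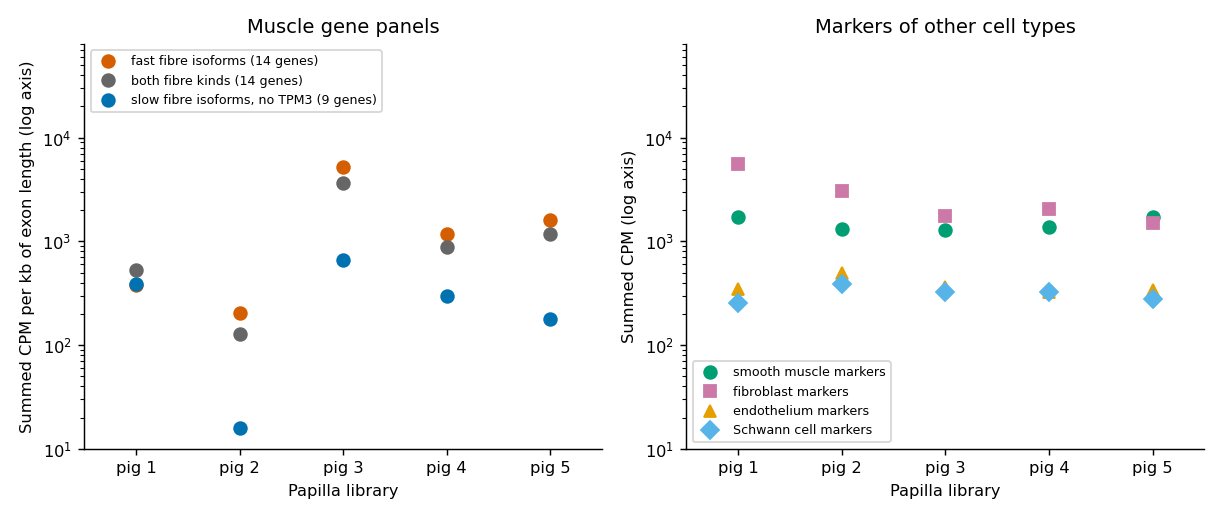
Left, summed CPM per kb of exon length (log axis) of the fast, shared and slow (without TPM3) muscle panels in each papilla library; right, summed CPM (log axis, not per kb) of marker genes of smooth muscle, fibroblasts, endothelium and Schwann cells in the same libraries, with 1 point per library. The muscle panels span 16.0 to 5211 CPM per kb and peak in pig 3, while smooth muscle markers stay between 1273 and 1719.7 CPM.

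Fast isoforms outweighed slow ones in 4 of 5 papillae. The fast panel took 47.8, 84.8, 88.3, 78.8 and 89.1% of the summed fast and slow level per kb in pigs 1 to 5, a mean of 77.8 ± 17.2% (SD, n = 5). With TPM3 left out of the slow panel the shares were 49.3, 92.7, 88.7, 79.9 and 90%. Pig 1 was the one papilla near balance. In CPM not divided by length the share in pig 2 was 58.9%, where TPM3 made up much of the slow sum, and leaving out pig 1 moved the mean to 85.2%.

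The same split was seen protein by protein. The fast share of troponin T was 38.9% in pig 1 (95% Wilson interval 37.2 to 40.6%), against 91.2, 85.9, 71.1 and 85.0% in pigs 2 to 5. For troponin C it was 40.6% in pig 1, against 71.4 to 91.1% in the other pigs, and for the regulatory light chain 44.8%, against 82.6 to 95.9%. The fast share of myosin heavy chain was 33.5% in pig 1, against 81.0 to 89.1%. The slow isoform thus exceeded the fast one in pig 1 for these 4 proteins and for myozenin, whose fast share was 42.4% there and 74.7 to 84.0% elsewhere. The heavy chain share may be too low, since pairs with several mapping places were left out. The troponin C share may be too high, since TNNC2 shares exon bases with LOC110257453.

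Troponin I and the essential light chain were shifted in the same direction but remained mostly fast in pig 1, at 63.0% (61.0 to 65.0%) and 67.2% (64.5 to 69.9%), against 87.2 to 95.0% and 86.4 to 95.9% in the other pigs. Myosin-binding protein C differed from the other pairs, since the slow gene MYBPC1 led in 4 papillae. Among papillae MYBPC1 had the same order of pigs as ACTA1, a gene of both fibre kinds. Its ratio of pig 1 to pig 5, 0.475, lay within the 0.238 to 0.728 of the genes of both kinds. Whether this pair reflects slow against fast fibres was not tested. The fast share was 18.2% in pig 1, 54.1% in pig 2 (47.9 to 60.2%), 34.5% in pig 3, 38.5% in pig 4 and 29.5% in pig 5. For calsequestrin the fast share was lowest in pig 2, at 67.3%, and 85.4 to 97.3% in the other papillae, pig 1 included at 86.1%.

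**Figure D3:**
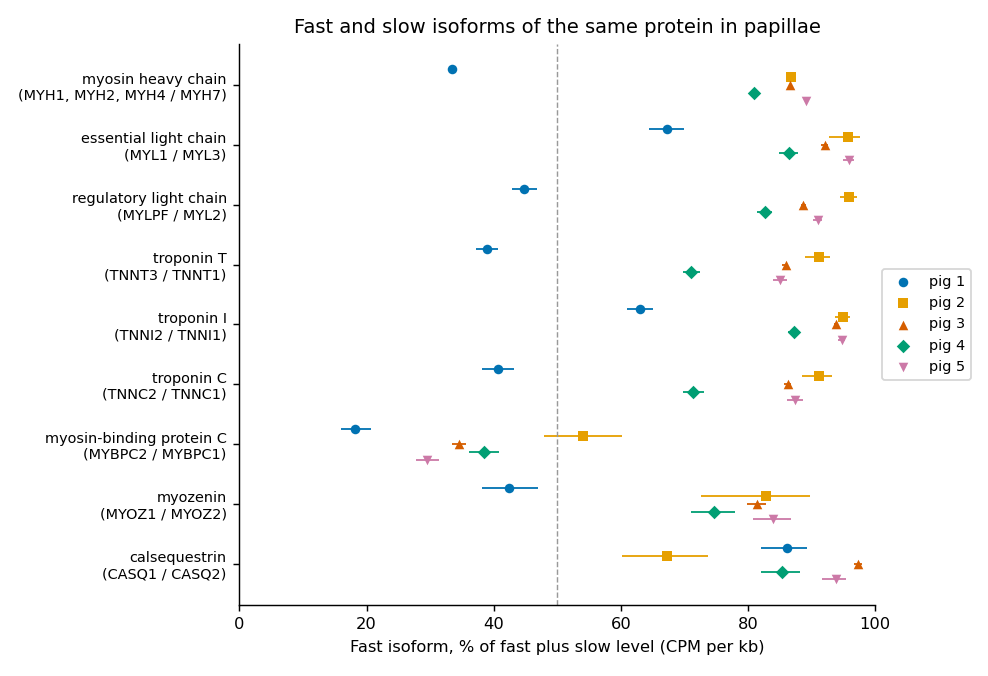
Fast isoform as a percentage of the fast plus slow level per kb (x axis) for 9 proteins (rows), with 1 point per papilla and bars for the 95% Wilson interval of the read counts where each side is 1 gene. The circles of pig 1 lie left of the other pigs in 8 of 9 rows, between 18.2 and 67.2%; in the calsequestrin row they do not.

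The slow and fast members were also set side by side as ratios of 2 papillae. Between pig 1 and pig 5, the 13 fast members had ratios of 0.152 to 0.447, with a median of 0.25 and 0 of 13 above 1. The 9 slow members without TPM3 had a median ratio of 2.46, with 8 of 9 above 1 and the highest value, 3.28, for MYH7. The exception was MYBPC1 at 0.475, and the 14 genes of both kinds had ratios of 0.238 to 0.728. Between pig 1 and pig 2 the medians were 3.10 for fast members and 23 for slow members, up to 54.2 for MYH7. With 1 library per pig these ratios have no replicate check.

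**Figure D4:**
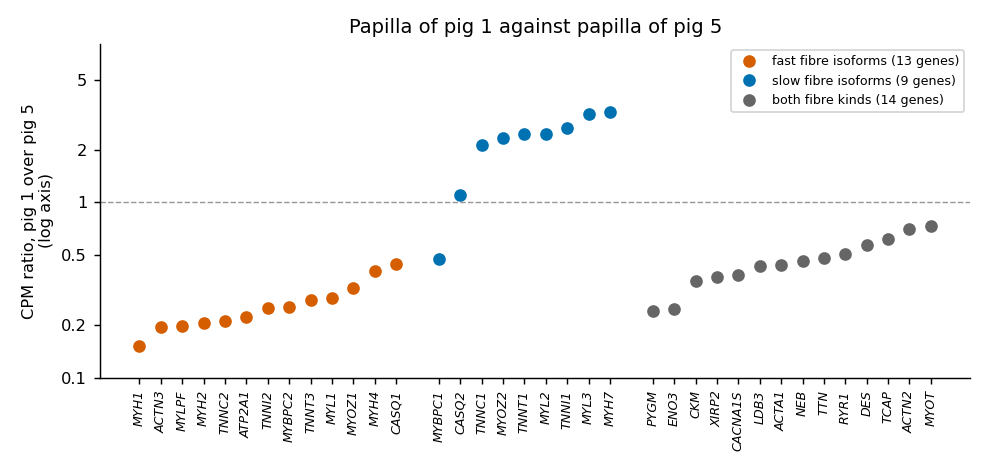
Ratio of CPM in the papilla of pig 1 to CPM in the papilla of pig 5 (log axis) for each member, sorted within fast, slow and shared genes; PVALB and TPM3 are left out. The fast genes lie between 0.152 and 0.447, and 8 of the 9 slow genes lie above 1.

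Further muscle genes that are not among the members gave a similar account. Of 69 other skeletal muscle genes, 64 had an entry and 59 were tested. In organoids 52 were called lower and 2 higher, with a median log2 fold change of -5.50. Over all genes tested, 35.1% were called lower. Of the 64 genes, 11 had 0 counts in passage 1 organoids. Such genes could pass the filter only through the papillae and had to differ, so the count of calls is a description here too. Of these 59 genes, 58 had their highest papilla in pig 3 and 51 their lowest in pig 2. TPM2, a tropomyosin of striated and smooth muscle, was at 1.12 to 8.98 CPM in organoids, against 203 to 1242 CPM in papillae (log2 fold change -6.74, SE 0.70, adjusted p = 7.87e-06). COX7A1, a muscle form of a respiratory chain subunit, fell 2.33-fold (adjusted p = 0.00121), at 11.3 to 21.3 CPM in organoids and 25.8 to 57.6 CPM in papillae. The 2 called higher were FBXO32, a ubiquitin ligase component known from muscle atrophy, and PHKA1, a phosphorylase kinase subunit.

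Regulators of the muscle lineage summed to 239 to 372 CPM in papillae, most of it from genes that are not specific to muscle, such as MEF2D at 78.9 to 89.0 CPM and TBX1 at 53.7 to 118 CPM. The muscle-specific factors were low. Of 11 regulators tested, 6 were called lower in organoids and 3 higher, beside 35.1% and 32.4% over all genes tested. PAX7, which marks satellite cells, the stem cells of muscle, had 1 count in organoids and 0.851 to 2.18 CPM in papillae. MYF6, a factor of mature fibres, had 0 counts in organoids and 1.2 to 19.8 CPM in papillae, and MYOD1 and MYOG, the factors of determination and differentiation, had 0 and 1 counts in organoids and 0.25 to 3.55 and 0.2 to 5.37 CPM in papillae. MEF2C, a co-factor of these regulators, fell 103-fold (adjusted p = 1.82e-06). MEF2A and SIX4, which are also used outside muscle, were called higher. MEF2A was at 28.2 ± 3.79 CPM in organoids and 11.4 ± 2.28 CPM in papillae, and SIX4 at 35.1 ± 8.80 CPM in organoids and 19.3 ± 6.01 CPM in papillae (SD, n = 5).

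Of 7 tested genes of the neuromuscular junction, where motor axons contact the fibre, 5 were called lower and 1 higher. The acetylcholine receptor subunit gene CHRNB1 was the one higher, at 66.5 ± 7.98 CPM in organoids and 33.2 ± 7.33 CPM in papillae (adjusted p = 1.54e-04). CHRNE, the adult receptor subunit, fell 1.66-fold (adjusted p = 0.00317), and ACHE, the esterase that clears acetylcholine, fell 10.7-fold (adjusted p = 1.62e-04). All 8 smooth muscle genes were called lower. Over all genes tested, 35.1% were called lower and 32.4% higher. Genes near 0 in organoids could pass the filter only through the papillae and had to differ or were tilted towards it. Examples are COLQ of the junction, at 0 to 0.0984 CPM in organoids, and ACTA2 of smooth muscle, at 0 to 0.123 CPM. The same limit holds for the fibroblast, endothelial, Schwann cell and gland genes. Of 3 tested cardiac genes, TNNI3, cardiac troponin I, was called higher, at 24.2 ± 4.42 CPM in organoids and 14.9 ± 2.23 CPM in papillae.

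What remained of the members in organoids was mostly TPM3. The summed level of all members was 47.5, 48.1, 47.2, 61.7 and 53.9 CPM per kb in passage 1 organoids, of which 5.80 to 9.66 CPM per kb came from genes other than TPM3. In these libraries 9 of the 38 members had 0 counts over all 5 pigs: MYH1, MYH2, MYH4, MYL1, MYL2, MYL3, MYOZ2, DES and MYOT. Defining genes of striated fibres were therefore at 0 in passage 1 organoids, among them the abundant fast motor and desmin. In the CQ experiment MYH2 had 17 counts in 1 of 3 CQ libraries and MYOT 23 in 2 of 3. DES, MYL1 and MYL2 had 0 counts in CQ.

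Besides TPM3, 5 members reached a mean of 1 CPM in passage 1 organoids, of which TNNC2 did so through pig 4 (mean 1.11 CPM, or 0.459 CPM without pig 4) and TNNI2 was at the limit (0.871 CPM without pig 3). RYR1 was at 3.01, 0.983, 5.84, 0.647 and 3.08 CPM in organoids of pigs 1 to 5, against 37.8, 16.2, 179, 69.8 and 74.7 CPM in papillae. ENO3 was at 1.87, 1.39, 3.56, 0.749 and 1.51 CPM in organoids, against 35.1, 17.5, 414, 106 and 143 CPM in papillae. For both genes pig 3 was highest and pig 4 lowest among organoids, whereas pig 2 was lowest among papillae. ATP2A1 was at 1.83, 1.43, 1.63, 0.511 and 2.17 CPM in organoids, against 42.7, 12.9, 425, 102 and 193 CPM in papillae. The organoid of pig 4 was again the lowest. The other 2 were TNNI2 and TNNC2, with the values above. ATP2A1 shares 49 exon bases with RABEP2 on the opposite strand, which had 7400 counts in organoids and 4878 in papillae, and the part of these reads in ATP2A1 was not tested.

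**Figure D5:**
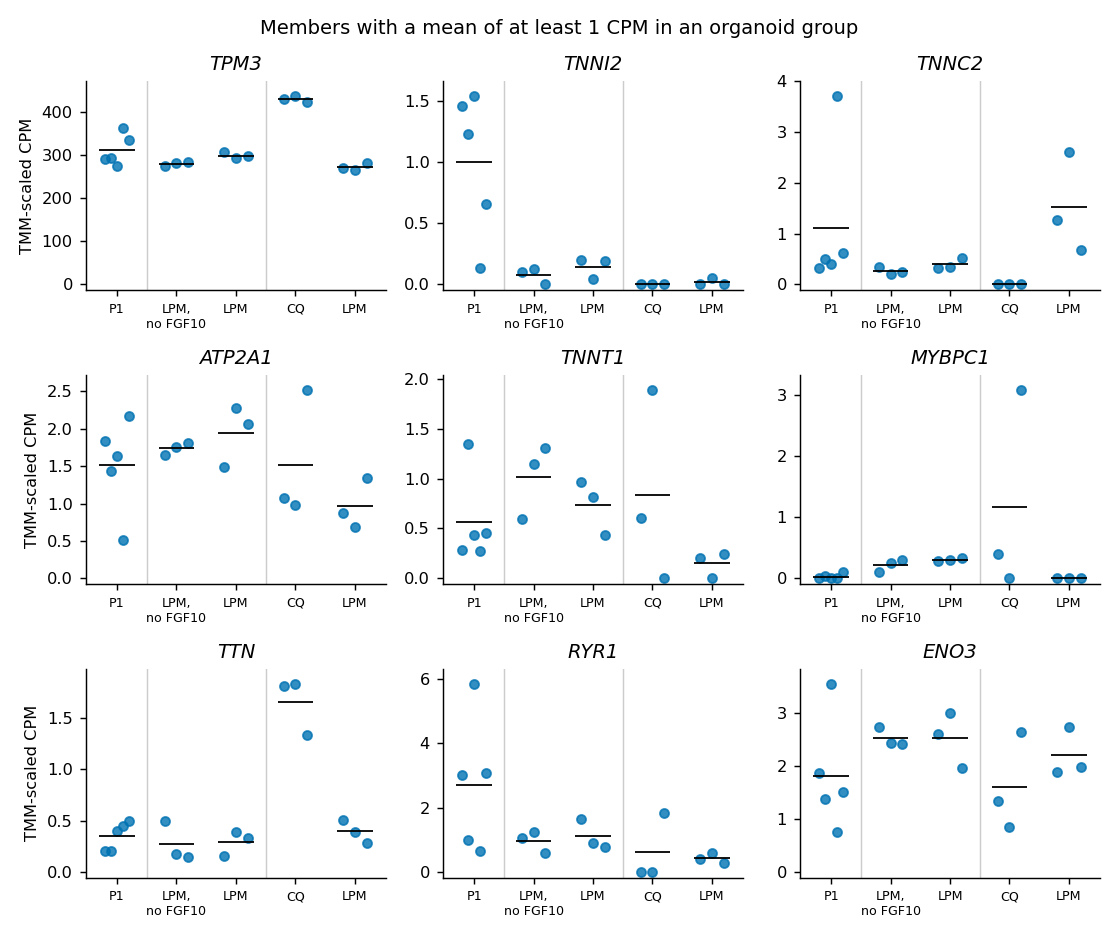
TMM-scaled CPM (y axis, own scale in each panel) of the 9 members with a mean of at least 1 CPM in an organoid group, with 1 point per library and a line at the group mean; groups are passage 1 (P1), LPM without FGF10 and LPM, and CQ and LPM, each experiment set apart by a grey line. TPM3 is at 424 to 438 CPM in the 3 CQ libraries and 266 to 282 CPM in the LPM libraries beside them, and no other member exceeds 5.84 CPM in any library.

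The FGF10 experiment asked what removing this fibroblast growth factor from the medium changes. Without TPM3, the members summed to 4.17, 4.28 and 4.21 CPM per kb without FGF10, against 4.50, 4.24 and 4.32 CPM per kb in complete LPM. Only 5 members passed the filter, and 0 were called by edgeR, by DESeq2 or by limma-voom, over a background of 1.20% called lower, 0.582% higher and 1.78% in all among 14262 genes. At an unadjusted p under 0.05 the count was 1, TPM3, at 276, 282 and 285 CPM without FGF10, against 307, 293 and 299 CPM in LPM (log2 fold change -0.09, SE 0.04, adjusted p = 0.268). These groups did not overlap, yet the difference was 1.07-fold. Of the 38 members, 1 lay lower without overlap, TPM3, and 2 higher, MYOZ1 and MYH7. MYOZ1 and MYH7 had too few counts to be tested. Of genes tested, 8.55% lay lower and 8.09% higher. These shares leave out genes with few counts, so they cannot be set against counts over all 38 members.

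The other 4 tested members overlapped between the groups. ATP2A1 was at 1.65, 1.75 and 1.81 CPM without FGF10, against 1.49, 2.28 and 2.06 CPM in LPM (log2 fold change -0.15, SE 0.23). TNNT1 was at 0.598, 1.15 and 1.31 CPM without FGF10, against 0.963, 0.817 and 0.431 CPM in LPM (0.45, SE 0.36). RYR1 was at 1.05, 1.24 and 0.604 CPM without FGF10, against 1.65, 0.903 and 0.767 CPM in LPM (-0.20, SE 0.34). ENO3 was at 2.74, 2.43 and 2.42 CPM without FGF10, against 2.61, 3.01 and 1.96 CPM in LPM (-0.01, SE 0.20). Adjusted p-values from edgeR ran from 0.690 to 0.995 for these 4. A total of 12 members had 0 counts in all libraries without FGF10. Members were at 0 in complete LPM too, among them MYH2, MYL1, MYL2 and ACTA1, which were at 0 in both groups.

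The CQ experiment compared organoids finished in CQ with organoids kept in LPM, and medium and age of the culture cannot be told apart. The counts of CQ libraries were more uneven than those of the others: among genes that averaged 10 to 30 counts, the median variance over mean was 12.68 in CQ and 1.952 in the LPM libraries beside it. Of 5 members tested, 2 were called higher and 1 lower, over a background of 23.1% called higher, 24.8% lower and 47.9% in all among 13827 genes. Without overlap, 2 of 38 members lay higher, TPM3 and TTN, and 3 lower, TNNC2, MYH7 and XIRP2. MYH7 and XIRP2 had too few counts to be tested. Of genes tested, 28.2% lay higher and 32.9% lower. These shares leave out genes with few counts, so they cannot be set against counts over all 38 members. TTN reached the filter's minimum in 3 CQ and 0 LPM libraries and TNNC2 in 0 CQ and 3 LPM libraries, so both were tested only through the group where they were high and had to differ, and their calls are a description. TPM3 reached it in every library.

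TPM3 rose 1.58-fold in CQ, at 431, 438 and 424 CPM, against 271, 266 and 282 CPM in LPM (log2 fold change 0.66, SE 0.09, adjusted p = 2.68e-04). The groups were far apart relative to their spread. TTN was at 1.81, 1.83 and 1.33 CPM in CQ, against 0.510, 0.392 and 0.283 CPM in LPM (log2 fold change 2.05, SE 0.72, adjusted p = 0.0407). The groups of TTN did not overlap, but the call rested on 78 counts in CQ and 25 in LPM. It was lost with limma-voom (adjusted p = 0.0638), without the filter (0.155) and without LPM replicate 1 (0.180), 2 (0.233) or 3 (0.212). A replicate block, whose numbers pair no labelled animals here, lost it too. Over all alternatives the adjusted p ran from 0.0246 to 0.233.

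TNNC2 had 0 counts in all 3 CQ libraries, against 1.27, 2.60 and 0.688 CPM in LPM (adjusted p = 0.00468, edgeR). The LPM values rest on 25, 53 and 17 counts. Given the uneven counts in CQ, a floor of 38.0 counts over the group was used there, and with it TNNC2 was at least 1.82-fold lower in CQ. Its antisense neighbour LOC110257453 had 0, 0 and 4 counts in CQ, against 87, 115 and 102 counts in LPM, more than TNNC2 itself had. Which of the overlapping genes changed was not tested.

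ATP2A1 and ENO3 overlapped between the groups. ATP2A1 was at 1.07, 0.975 and 2.52 CPM in CQ, against 0.867, 0.686 and 1.34 CPM in LPM (log2 fold change 0.66, SE 0.73, adjusted p = 0.489). ENO3 was at 1.34, 0.853 and 2.65 CPM in CQ, against 1.89, 2.74 and 1.98 CPM in LPM (log2 fold change -0.45, SE 0.64, adjusted p = 0.597). MYBPC1 was at 0.403, 0 and 3.09 CPM in CQ and 0 in LPM, too few counts to be tested. In CQ 17 of the 38 members had 0 counts. Members were at 0 in the LPM libraries too, among them MYL1, MYL2, ACTA1 and DES, which were at 0 in both groups. The CQ libraries held 14.67 to 16.0 M counts and these LPM libraries 19.62 to 26.01 M.

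Related genes moved in both directions in CQ, as genes in general did. Of 21 other skeletal muscle genes tested, 7 were called lower and 1, FHL1, higher, beside 24.8% lower and 23.1% higher over all genes tested. TPM1, a tropomyosin of many cell types, was at 148, 144 and 153 CPM in CQ, against 346, 337 and 346 CPM in LPM (log2 fold change -1.21, SE 0.09, adjusted p = 9.53e-06), the opposite direction to TPM3. JPH1, which joins surface and store membranes, fell 4.17-fold (adjusted p = 0.00146). Of 7 regulators tested, 2 were called higher, among them EYA1, and 3 lower, among them SIX4 and TBX1. TAGLN, an actin-binding protein of smooth muscle that other cells also make, was at 172 ± 33.1 CPM in CQ and 2.11 ± 0.482 CPM in LPM (SD, n = 3; log2 fold change 6.34, SE 0.23, adjusted p = 2.42e-07). LMOD1, the leiomodin of smooth muscle, went the other way, at 0.535 ± 0.519 CPM in CQ and 15.4 ± 0.765 CPM in LPM (log2 fold change -4.81, SE 0.68, adjusted p = 4.52e-04). Of 4 smooth muscle genes tested, 2 were called higher and 1 lower, too few to set against the share of all genes.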

How the data were processed

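RNA from foliate papillae and organoids was sequenced after poly-T selection, per the labels' protocols. Papillae were extracted with a low-input kit without a DNase step and organoids with a column kit, per the labels. The deposited values are raw gene counts, one per read pair, without normalization. The authors used featureCounts, version 2.0.3 for 16 libraries and 2.0.6 for the 6 of the CQ experiment, per the file headers. The commands in these headers set no strand, let a pair count for each gene it overlapped, and left out pairs with several mapping places. The submitters' processing notes also name FastQC 0.11.9, STAR 2.7.10b, MultiQC 1.14 and DESeq2. An entry without a gene name (0.326 to 0.477% of counts in the CQ experiment) was left out.

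Each comparison was fitted on its own groups over all genes with edgeR 4.0.16 in R 4.3.3 (TMM, filterByExpr with a minimum of 10 counts, quasi-likelihood F test, Benjamini-Hochberg adjustment, called at adjusted p under 0.05). Alternatives were DESeq2 1.42.0, limma-voom 3.58.1, library size alone, no filter, a replicate block and leaving out each library, and the code was tested on simulated data. CPM are TMM-scaled, and per-kb levels use the exon length in the file headers' annotation. Groups at 0 were given a floor of 3 counts over the group. For CQ this floor was multiplied by the median variance over mean among genes averaging 10 to 30 counts, which was decided with the CQ counts in view. For the other groups it was not, although this value was 5.777 in passage 1 organoids, so bounds there reflect counting error alone. Files' coordinates are Sscrofa11.1, and all 38 members had the same span in the reference table. The members, lists and tests were chosen with earlier results of these data known. Of the other lists, text names mainly the most abundant genes per kb in papillae and those with the smallest p in a medium comparison; others were chosen after their values were seen. Some regulators of the muscle lineage are not reported here.

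Passage 1 organoids and papillae with the same number come from the same pig per the labels, and deviations of same-numbered libraries correlated at 0.0355 to 0.11. Replicates of 1 group differed by more than sampling noise (chi-square per degree of freedom 2.76 to 344).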

Additional observations from a re-analysis of the deposited data

Results flagged for a closer look

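A library was marked where its gap to the nearest other library of the group was more than 0.71 of the group's range. By this rule 14 of 68 groups of 5 libraries were marked. Chance marks about 1 in 20 groups only if groups are independent and values spread normally. These groups share libraries, and the panel sums contain the same genes, so the count cannot be set against that rate. In the papilla of pig 3, TNNT3 was at 1268 CPM with the next papilla at 339, TNNI2 at 921 with the next at 256, and TNNC2 at 639 with the next at 164. In the same papilla MYOZ1 was at 148 CPM with the next at 46.0, CASQ1 at 153 with the next at 45.3, CKM at 1358 with the next at 401 and TCAP at 802 with the next at 217. The fast panel at 5211 and all members at 9559 CPM per kb stood apart there too, with the next papilla at 1612 and 2975. These 9 values share 1 library. The fast share of 47.8% in the papilla of pig 1 stood apart from the others, the nearest being 78.8%.

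Among organoids, TNNC2 was at 3.71 CPM in pig 4 with the next at 0.623, and with it the fast panel at 8.33 CPM per kb with the next at 3.89. TNNT1 was at 1.35 CPM in the organoid of pig 2 with the next at 0.459, and PYGM at 0.623 CPM in that of pig 5 with the next at 0.176.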

How the results depend on the processing

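For organoids against papillae, the 35 members called lower stayed lower and TPM3 higher with every tool, scaling and left-out library tried and 36 were lower without the filter or without papilla 1. The pairing by pig was fitted as a replicate block: it left 35 members lower and 1 higher, with 5723 and 4956 of all genes, and changed no call of a member; over all genes 5730 were lower and 5281 higher without it. In the media experiments the numbers are shared only as numbers (correlations of -0.0457 to 0.0475 and -0.00754 to 0.0213); the block gave 69 genes higher and 165 lower without FGF10, and 2901 higher and 3219 lower in CQ. With it TTN had a log2 fold change of 2.07 (adjusted p = 0.201, edgeR), which left 1 member called higher.

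Without FGF10, 83 genes were called higher and 171 lower; without the filter the counts were 132 and 297. Leaving out 1 library gave 37 to 90 higher and 82 to 204 lower, lowest without LPM replicate 2 (43 and 82) and without replicate 1 of the FGF10-free group (37 and 91). No member was called there. Leaving out 1 library, the uncalled RYR1 ran from -0.44 to 0.22 and the uncalled ENO3 from -0.15 to 0.13. RYR1 reversed to 0.22 without LPM replicate 1 and 0.03 without FGF10-free replicate 3. ENO3 reversed to 0.01 with library size alone, with limma-voom and without LPM replicate 1, to 0.13 without LPM replicate 2, and to 0.02 without FGF10-free replicate 2 or 3. The cause was not tested.

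In CQ, limma-voom called 1 member higher, and leaving out 1 library gave 1 to 3, with 1 left without LPM replicate 1, 2 or 3. Summed member levels in CPM not divided by length were 323 in passage 1 organoids, 289.9 without FGF10 and 309 in its LPM, and 443 in CQ and 279.8 in its LPM. Without TPM3 the per-kb means were 6.96, 4.22, 4.35, 4.04 and 5.72 in the same order. With TPM3, the CQ mean per kb was 65.8, and 67.4 by library size alone. The fast share in the papilla of pig 2 was 58.9% without division by length. Members under about 1 CPM rest on few counts, which limits every statement on organoids.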
